A study of Mus musculus with 30 samples.

Results

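DMHCA and T0901317 are ligands of the liver X receptors (LXR), and their effects on messenger RNA were set side by side in mouse macrophages at a matched dose of 1 uM. DMHCA is a cholenamide, a sterol with an amide side chain that mimics desmosterol, and T0901317 is a synthetic agonist that is not a sterol. The comparison rests on 6 libraries, 3 with DMHCA and 3 with T0901317, of the 30 libraries in the series. In macrophages 11544 of 24063 counted genes had enough counts to be tested. The cells were macrophages drawn into the peritoneum by thioglycollate and kept in RPMI medium with serum. All of them, the vehicle group included, had mevastatin at 10 uM, a statin, mevalonate at 50 uM and serum freed of lipid at 10% from 24 h before treatment, and stayed so for 18 to 20 h with the ligand. The labels give no strain, age, sex or genotype, and do not state what a replicate is, an animal, a culture or a well. The p-values therefore cover the spread among these libraries alone, which may be technical. Vehicle macrophages, 3 libraries, are given as background for both ligands, and primary hepatocytes with DMHCA, T0901317 or vehicle, 2 libraries each, kept in Hepatozyme medium with the same lipid-free treatment, serve as the other cell type.

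The LXRs are nuclear receptors that sense oxidised sterols and desmosterol. In macrophages they are known for switching on genes of cholesterol efflux and also Srebf1, which encodes SREBP-1c, the driver of fatty acid synthesis. The related factor SREBP-2 drives cholesterol synthesis and uptake. Both SREBPs are held in the endoplasmic reticulum by Scap and the Insig proteins when sterols are plentiful, and are cut and released to the nucleus when sterols are scarce.

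Libraries held 3.86, 5.78 and 7.69 M exon counts with DMHCA, against 4.02, 4.01 and 11.45 M with T0901317. Vehicle libraries held between 10.55 and 15.69 M. Levels are CPM, a gene's counts relative to the library total scaled by TMM factors, and differences are log2 fold changes of DMHCA over T0901317 ± SE from edgeR's quasi-likelihood test, so that negative values mean a lower level with DMHCA. A gene is called higher or lower where its Benjamini-Hochberg adjusted p over all tested genes was below 0.05, and every CPM value or fold change below rests on n = 3 libraries a group unless hepatocytes are named. Some called genes described with their own p lost that call when a library was left out or a setting changed. The adjusted p found then stands in brackets, and the lowest among the gene's alternatives, 13 at most, comes last. A fit of all 30 libraries is not among the 13, and its adjusted p is given for some genes only. Named genes that lost their call in that fit are listed with the dependence on processing. Within its own group T0901317 replicate 2 lay farthest from the other libraries, with a root mean square log2 distance of 0.443, against 0.369 to 0.415 for the other 5 libraries.

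With DMHCA 591 genes differed from T0901317, 5.12% of those tested: 260 were higher (2.25%) and 331 lower (2.87%). The lower side reached further. More than 2-fold differences were found for 70 lower and 6 higher genes, and more than 4-fold differences for 14 lower and 0 higher genes. The median of the called genes was −0.56 on the lower side and 0.30 on the higher side. Of the 70 genes over 2-fold lower 29 belonged to the lists for fatty acid synthesis, cholesterol synthesis and other SREBP-2 targets, as did 10 of the 14 over 4-fold lower. These lists held 17, 22 and 11 of the 11544 tested genes. They were chosen with earlier results of these data known. Without DMHCA replicate 3, the deepest DMHCA library, 141 genes were higher and 195 lower. In a fit of all 30 libraries from both cell types, an alternative chosen after seeing the data, 106 were higher and 175 lower. Against vehicle, in the main fit of the 18 macrophage libraries, 669 genes were higher and 681 lower with DMHCA (5.8% and 5.9% of those tested). With T0901317 726 were higher and 756 lower (6.29% and 6.55%). Both sets of calls share the vehicle libraries. Summed markers of fibroblasts and smooth muscle, described further on, were lower in every DMHCA library than in every T0901317 library, and their part in these counts was not tested.

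**Figure D1:**
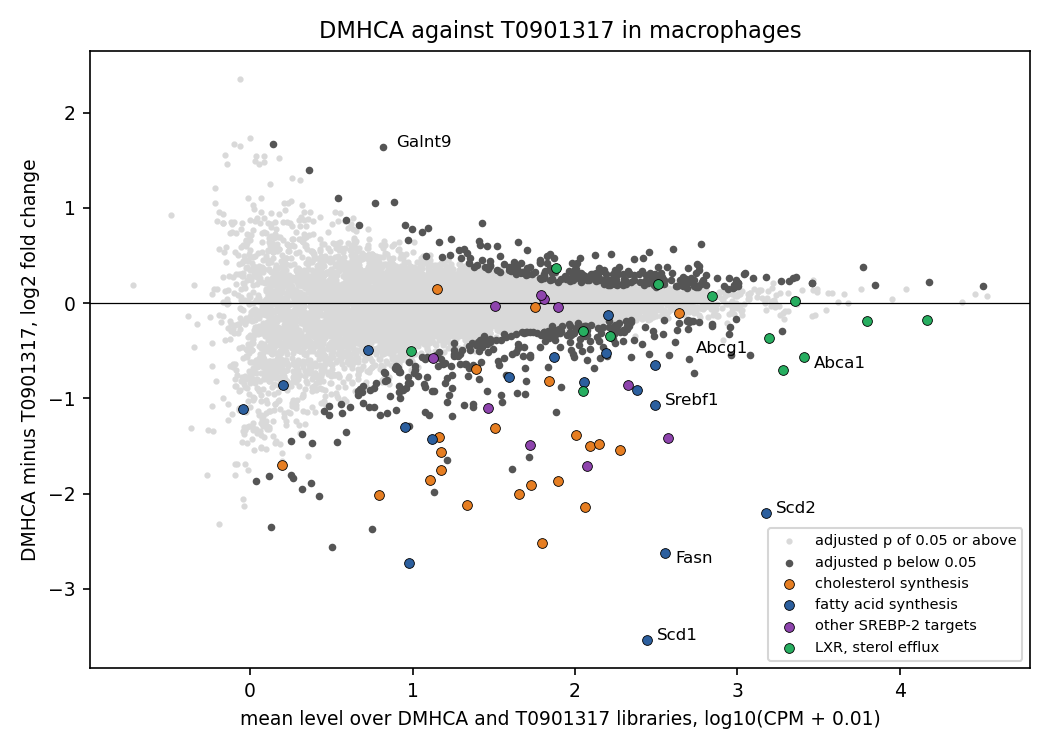
Each point is a gene tested in macrophages. The x axis gives the mean level over the 6 libraries in CPM on a log10 scale and the y axis the log2 fold change of DMHCA over T0901317. Grey points did not pass the adjusted p of 0.05, dark points did, and coloured points are members of 4 gene lists. Genes of cholesterol and fatty acid synthesis make up much of the lower part of the plot, with Scd1 at −3.54, while Abca1 and Abcg1 lie just under 0. The plot leaves off 1 gene with 1 count over the DMHCA libraries.

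Genes of sterol efflux and lipid transport, the direct LXR targets best known in macrophages, were moderately lower with DMHCA than with T0901317 and mostly above vehicle with both. Abca1 (chr4:53030789-53159895 on mm10), the pump that loads cholesterol onto lipoproteins, had 2099.5, 2159.5 and 1999 CPM with DMHCA, against 3142, 2997 and 3099 CPM with T0901317 and 139.9, 161 and 159 CPM with vehicle. All DMHCA libraries lay below all T0901317 libraries, and the vehicle libraries lay far below both. The difference between the ligands was −0.56 ± 0.05 (adjusted p = 1.56e-12), a 1.48-fold lower level with DMHCA. Abcg1, a further cholesterol exporter, had 1399.6, 1402 and 1307 CPM with DMHCA, against 1718, 1822 and 1754 CPM with T0901317 and 229, 251 and 252 CPM with vehicle, a difference of −0.37 ± 0.05 (adjusted p = 1.35e-07). For Mylip, a ubiquitin ligase that curbs lipoprotein uptake, levels were 145, 150 and 138 CPM with DMHCA, against 175, 187 and 186 CPM with T0901317 and 13.7, 14.1 and 14.5 CPM with vehicle, a difference of −0.35 ± 0.06 (adjusted p = 4.08e-05). In these 3 genes the ligands differed by less than 1 log2 unit, and each ligand group stood apart from the other without overlap.

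Of 17 genes in the list for efflux and transport 13 could be tested, of which 8 were lower and 2 higher with DMHCA, with a median of −0.29 against 7e-04 over all tested genes. The widest gap was in Lpcat3, an enzyme that places polyunsaturated fatty acids into phospholipids, with 84.3, 77.2 and 73.3 CPM with DMHCA, against 155, 140.1 and 146 CPM with T0901317 and 39.03, 43.1 and 42.96 CPM with vehicle (−0.92 ± 0.08, adjusted p = 1.84e-12). Pltp, the phospholipid transfer protein, followed with 1453, 1468 and 1424 CPM with DMHCA, against 2285, 2511 and 2279.9 CPM with T0901317 and 311, 321 and 333 CPM with vehicle (−0.70 ± 0.05, adjusted p = 1.86e-13). Nr1h3, the gene of LXR alpha itself, went the other way, with 88.3, 83.1 and 85.3 CPM with DMHCA, against 68.9, 65.4 and 64.6 CPM with T0901317 and 72.8, 71.7 and 64.98 CPM with vehicle (0.37 ± 0.07, adjusted p = 0.000603). The lysosomal cholesterol transporters Npc1 and Npc2 did not pass the test, with values of 0.07 ± 0.05 (95% interval −0.03 to 0.18) and 0.02 ± 0.04 (−0.07 to 0.10). Pltp and Lpcat3 overlap genes on the other strand, Ctsa and Emg1, whose reads could not be kept apart without strand. Small differences were called in 4 further members, and all 4 calls were lost under at least 1 alternative and in the fit of all 30 libraries. In that fit 5 members of the list were lower and 1 was higher. Arl4c (−0.29 ± 0.07, adjusted p = 0.00324) was lower and lost its call without DMHCA replicate 3 (0.0721), lowest 0.00203, and in the 30-library fit (0.152). Lpl, the lipoprotein lipase (−0.19 ± 0.04, adjusted p = 0.00376), was lower and lost it without T0901317 replicate 3 (0.0924), lowest 0.000597, and in the 30-library fit (0.159). Apoe, the apolipoprotein that accepts cholesterol (−0.17 ± 0.05, adjusted p = 0.0202), was lower and lost it without DMHCA replicate 3 (0.164) or T0901317 replicate 2 (0.2), lowest 0.00194, and in the 30-library fit (0.216). Smpdl3a (0.20 ± 0.06, adjusted p = 0.0204) was higher and lost it with counts thinned to one depth (0.0987) or without DMHCA replicate 1 (0.0538) or 3 (0.199) or T0901317 replicate 1 (0.0744) or 3 (0.11), lowest 0.0132, and in the 30-library fit (0.131). Against vehicle 10 members rose and 0 fell with DMHCA, and 9 rose and 1 fell with T0901317. The 1 that fell was Smpdl3a (−0.20 ± 0.05, adjusted p = 0.0055). With DMHCA Smpdl3a did not pass against vehicle (−0.003 ± 0.05, adjusted p = 0.983).

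A second list held 9 other genes taken as induced by LXR ligands in macrophages. Of these 8 were tested and 5 were lower with DMHCA, with a median of −0.41. Against vehicle 6 of the 8 rose with each ligand. Cd38, an ectoenzyme that consumes NAD, had 37.98, 28.5 and 25.2 CPM with DMHCA, against 62.97, 57.6 and 53.1 CPM with T0901317 and 2.86, 3.37 and 2.53 CPM with vehicle (−0.95 ± 0.11, adjusted p = 5.53e-08). The ligand groups did not overlap, and both lay well above vehicle. Il18bp, which neutralises interleukin 18, differed by −0.56 ± 0.09 (adjusted p = 2.96e-05) and Cd5l, a secreted macrophage protein, by −0.39 ± 0.07 (adjusted p = 0.00017). Lbp, which binds bacterial lipopolysaccharide, differed by −0.64 ± 0.16 (adjusted p = 0.00798) and lost its call with counts thinned to one depth (0.0561) or without DMHCA replicate 3 (0.19) or T0901317 replicate 2 (0.062), lowest 0.000757. The lipid transporter Abca7 differed by −0.42 ± 0.12 (adjusted p = 0.0287) and lost its call without DMHCA replicate 2 (0.0548) or 3 (0.232) or T0901317 replicate 1 (0.0692), 2 (0.0626) or 3 (0.0815), lowest 0.0275. Against vehicle Abca7 passed with neither DMHCA (−0.32 ± 0.11, adjusted p = 0.05004) nor T0901317 (0.10 ± 0.11, adjusted p = 0.674). The receptor Mertk, which takes up apoptotic cells, and the crosslinking enzyme Tgm2 did not pass, at −0.04 ± 0.05 (−0.15 to 0.06) and −0.01 ± 0.07 (−0.15 to 0.12).

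**Figure D2:**
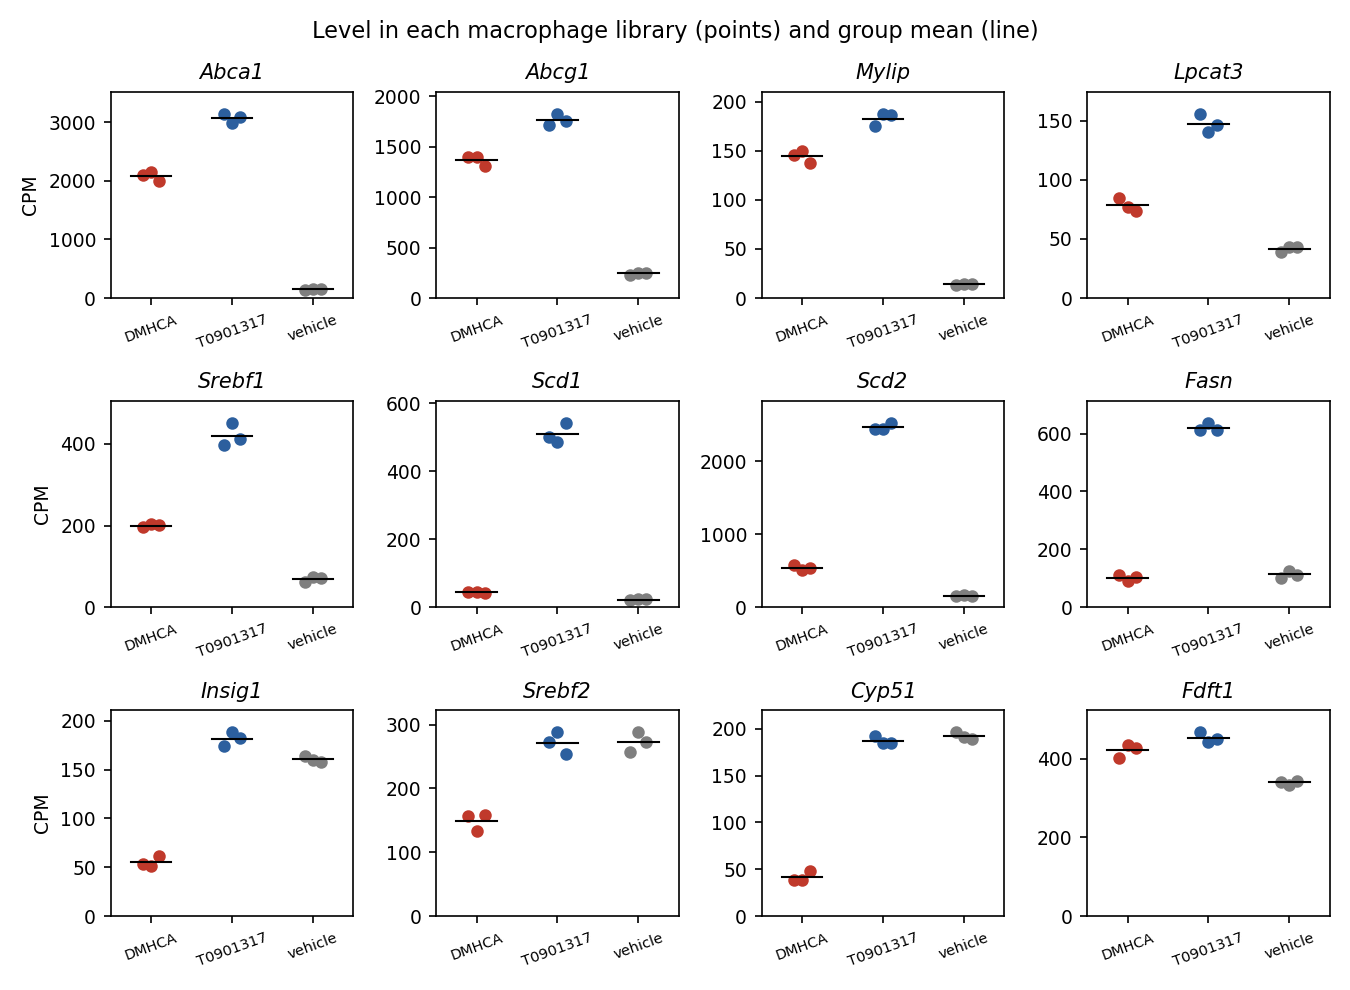
Level in CPM, on linear axes from 0, of 12 genes in each macrophage library. The 3 points of a group are its replicates and the line is their mean. In the top row the DMHCA points lie closer to T0901317 than to vehicle except for Lpcat3. In the middle row they lie nearer to the vehicle points than to T0901317, and in Insig1, Srebf2 and Cyp51 they lie below the vehicle points.

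Srebf1 and genes of fatty acid synthesis separated the ligands more than the efflux list did, with list medians of −0.92 and −0.29. The part of SREBP-1c in these differences was not tested. Srebf1 had 195, 203 and 201 CPM with DMHCA, against 399, 451 and 411 CPM with T0901317 and 62.2, 74.04 and 70.6 CPM with vehicle. The DMHCA libraries lay between the other groups, 2.1-fold below T0901317 (−1.07 ± 0.06, adjusted p = 6.84e-18) and 1.53 ± 0.06 above vehicle on the log2 scale. The count is over the exons of 1 Srebf1 transcript model, and SREBP-1c and SREBP-1a were not told apart. Scd1 (chr19:44394450-44407709 on mm10), the desaturase that makes monounsaturated fatty acids, had 44.8, 44.7 and 42.6 CPM with DMHCA, against 499, 484 and 541 CPM with T0901317 and 20.2, 23.5 and 22.6 CPM with vehicle. It was 11.6-fold lower with DMHCA (−3.54 ± 0.07, adjusted p = 3.79e-33). Its neighbour Scd2 (chr19:44293676-44306862), another desaturase, had 573, 508 and 531 CPM with DMHCA, against 2443, 2441 and 2528 CPM with T0901317 and 159, 164 and 154 CPM with vehicle (−2.20 ± 0.06, adjusted p = 3.88e-29). Scd1 and Scd2 are close paralogs whose shared reads the counting could split between them, and the span of Srebf1 meets that of Rai1 on the other strand.

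Fasn, the fatty acid synthase, had 111, 89.1 and 103 CPM with DMHCA, against 611, 637 and 612 CPM with T0901317 and 102, 124 and 112 CPM with vehicle. Its DMHCA and vehicle libraries overlapped, and DMHCA did not pass the test against vehicle (−0.17 ± 0.07, adjusted p = 0.131), while the difference from T0901317 was −2.63 ± 0.07 (adjusted p = 4.49e-29). Fads2, a front-end desaturase of polyunsaturated fatty acids, was at 1.05, 3.67 and 2.27 CPM with DMHCA, against 17.4, 16.8 and 15.6 CPM with T0901317 and 5.81, 9.81 and 9.54 CPM with vehicle (−2.73 ± 0.28, adjusted p = 7.62e-10). The elongase Elovl6 (−1.43 ± 0.17, adjusted p = 8.56e-08) and Acss2, which makes acetyl-CoA from acetate (−1.30 ± 0.20, adjusted p = 1.76e-05), were also lower. Against vehicle DMHCA lowered Elovl6 (−1.60 ± 0.16, adjusted p = 3.11e-10) and Acss2 (−0.96 ± 0.19, adjusted p = 0.000391). With T0901317 neither Elovl6 (−0.17 ± 0.13, adjusted p = 0.515) nor Acss2 (0.34 ± 0.16, adjusted p = 0.2075) passed against vehicle.

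Of 23 genes in the fatty acid list 17 were tested, of which 13 were lower and 0 higher with DMHCA, with a median of −0.92. The 6 called members not yet named ranged from −0.92 to −0.53, among them Acaca, the acetyl-CoA carboxylase (−0.78), and Acly, which makes cytosolic acetyl-CoA (−0.65). Elovl1 (−0.13 ± 0.06, −0.24 to −0.01) and Fads3 (−0.49 ± 0.25, −0.996 to 0.02) did not pass. Against vehicle the list had 6 genes up and 8 down with DMHCA, and 10 up and 0 down with T0901317. The count of 13 lower genes was the same without each of the 6 libraries in turn.

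In cholesterol synthesis DMHCA was below T0901317 at nearly every step, and T0901317 stayed near vehicle. All 22 enzymes of the list were tested, and 19 were lower with DMHCA and 0 higher, with a median of −1.55. Against vehicle 18 fell and 1 rose with DMHCA (median −1.73), while 4 fell and 3 rose with T0901317 (median 0.02). Cyp51 (chr5:4080674-4104697 on mm10), the lanosterol demethylase, had 38.8, 38.4 and 48.1 CPM with DMHCA, against 192, 185 and 185 CPM with T0901317 and 196, 191 and 189 CPM with vehicle (−2.14 ± 0.09, adjusted p = 1.24e-22). It was 4.41-fold lower with DMHCA, whose libraries lay below all others, while T0901317 and vehicle lay close together.

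Earlier in the pathway Fdps, the farnesyl diphosphate synthase, was at 7.86, 7.68 and 8.15 CPM with DMHCA, against 32.2, 44.1 and 30.2 CPM with T0901317 and 31.8, 30.9 and 28.9 CPM with vehicle (−2.13 ± 0.16, adjusted p = 8.05e-14). Mvd, the mevalonate diphosphate decarboxylase, was at 22.8, 19.2 and 25.2 CPM with DMHCA, against 97.2, 76.7 and 82.7 CPM with T0901317 and 78.98, 78.1 and 77.1 CPM with vehicle (−1.92 ± 0.10, adjusted p = 1.7e-18). Lss, which closes the sterol ring, was at 17.8, 14.7 and 21.1 CPM with DMHCA, against 66.4, 78.7 and 72.5 CPM with T0901317 and 65.7, 63.3 and 61.7 CPM with vehicle (−2.002 ± 0.11, adjusted p = 8.41e-18). In each of these the lowest T0901317 library was above the highest DMHCA library. Tm7sf2, a sterol reductase at low level, differed by −2.01 ± 0.25 (adjusted p = 1.85e-07). Hmgcs1, the synthase of HMG-CoA, and Sqle, the squalene epoxidase, were added for their place in the pathway after their values were seen. Hmgcs1 averaged 97.6 ± 7.73 CPM with DMHCA and 283 ± 8.46 CPM with T0901317 (SD), a difference of −1.54 ± 0.06 (adjusted p = 2.57e-22). Sqle averaged 33.00 ± 5.7 CPM with DMHCA and 123 ± 0.602 CPM with T0901317, a difference of −1.87 ± 0.08 (adjusted p = 6.69e-21). The 13 called enzymes outside the rule for naming, these included, ranged from −1.87 to −0.69.

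Among the enzymes 3 did not pass the test. Fdft1, the squalene synthase, had 400.3, 435 and 427 CPM with DMHCA, against 467, 441 and 450 CPM with T0901317 and 341, 334 and 343 CPM with vehicle. Its difference was −0.10 ± 0.05 (95% interval −0.20 to −0.01, adjusted p = 0.265). It was the 1 enzyme called above vehicle with DMHCA (0.31 ± 0.05, adjusted p = 3.86e-06). The span of Fdft1 overlaps that of Ctsb on the other strand, a cathepsin gene with 23994 ± 386 CPM with DMHCA and 23878 ± 149 CPM with T0901317 (SD), so without strand the counts of Fdft1 may hold reads of Ctsb. The isomerase Ebp was at −0.04 ± 0.08 (−0.21 to 0.13), and Ggps1, which leads from this pathway to protein prenylation, was at 0.15 ± 0.15 (−0.15 to 0.45). The intervals of all 3 leave out a difference as wide as the median of the list. For Fdft1 this holds for its counts, with any reads of Ctsb in them, and cannot be said of the gene alone.

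**Figure D3:**
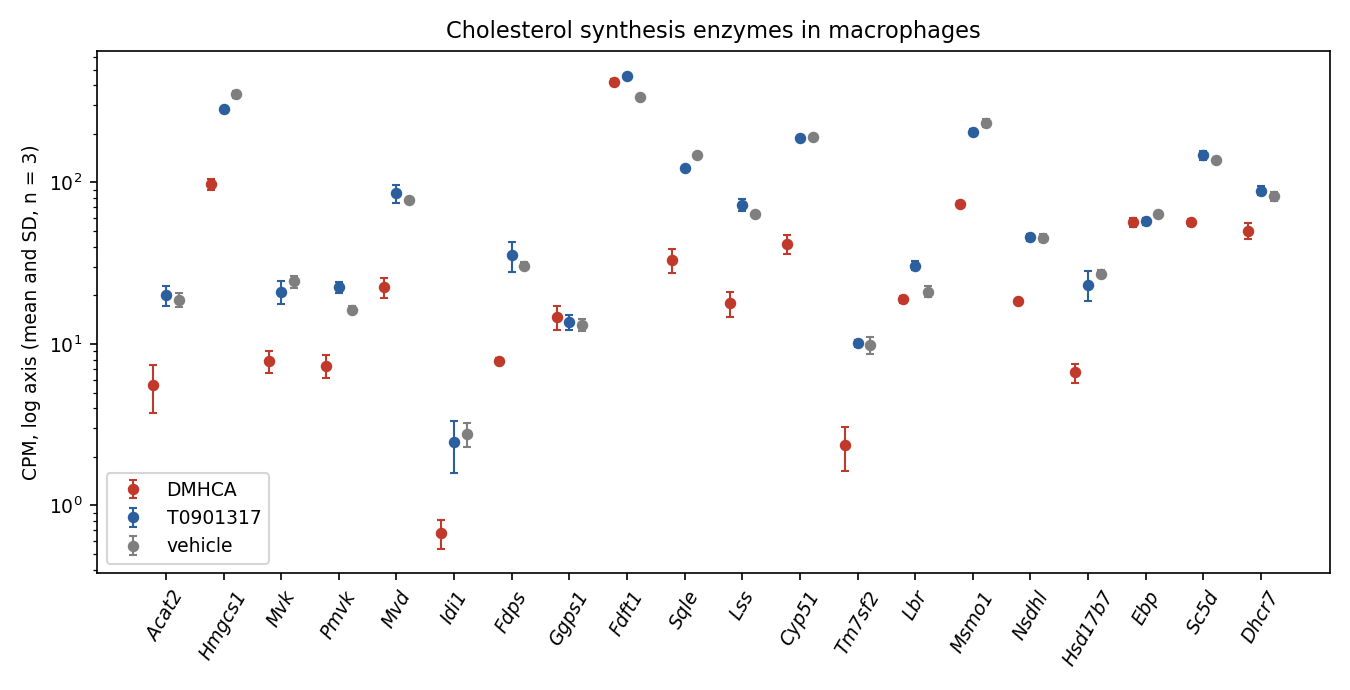
Level of 20 of the 22 enzymes of cholesterol synthesis in macrophages, in pathway order from left to right, in CPM on a log axis. Points are means of 3 libraries with DMHCA, T0901317 and vehicle from left to right, and bars are SD, and CPM is not corrected for transcript length, so that groups and not genes are to be compared. DMHCA lies below T0901317 for the 17 enzymes drawn that passed the test, T0901317 and vehicle lie close together, and Ggps1, Fdft1 and Ebp show no such gap.

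Promoters of these enzymes are shown because the genes moved together and because SREBP-2 is known to act with the CCAAT-binding factor NF-Y. RefSeq promoter windows on GRCm38.p6, the build named mm10, were found for 17 of the 22 genes, 20 windows in all, and the 250 bases before the start were searched on both strands. The 5-letter motif CCAAT was found in 16 of 20 windows (80%), against 33.9% of all 32841 promoters. It was found in 4 of 11 windows of other SREBP-2 targets (36.4%), in 12 of 24 of the fatty acid list (50%) and in 7 of 16 of the efflux list (43.8%). The sterol element TCACNCCAC was found in 1 of 20 windows (5%), against 1.05% of all promoters. After these matches had been seen the shorter form TCACNCCA, which drops the last letter of the longer one and so includes its matches, was searched as well, and 2 of 20 windows held it (10%), against 3.68% of all promoters. In the list of other SREBP-2 targets 0 of 11 windows held the longer and 1 of 11 the shorter form, and in the fatty acid list 1 of 24 and 2 of 24. A match is a description of letters and not of binding. Some stretches that span the outermost matches with a short flank overlap no annotated exon. Of these, 3 from enzymes and that of Srebf2 are printed 5′ to 3′ on the strand of the gene. CCAAT, its reverse complement and the shorter sterol element are in capitals. Stretches of Lss, Pmvk, Sc5d and Lbr also overlap no exon but are not printed, and hold 1, 1, 1 and 2 CCAAT motifs. The Hmgcs1 stretch lies at chr13:119690104-119690320 on the plus strand and holds 1 sterol element and 3 CCAAT motifs. That of Mvk, the mevalonate kinase, lies at chr5:114444086-114444268 on the plus strand and holds 5 CCAAT motifs. The Mvd stretch lies at chr8:122443435-122443492 on the minus strand and holds 2, and that of Srebf2 lies at chr15:82147097-82147148 on the plus strand and holds 1 of each.
Hmgcs1: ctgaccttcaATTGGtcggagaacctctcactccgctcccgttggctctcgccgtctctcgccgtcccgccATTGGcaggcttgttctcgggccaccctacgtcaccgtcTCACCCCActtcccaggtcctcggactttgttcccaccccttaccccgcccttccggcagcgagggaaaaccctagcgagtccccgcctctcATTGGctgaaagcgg
Mvk: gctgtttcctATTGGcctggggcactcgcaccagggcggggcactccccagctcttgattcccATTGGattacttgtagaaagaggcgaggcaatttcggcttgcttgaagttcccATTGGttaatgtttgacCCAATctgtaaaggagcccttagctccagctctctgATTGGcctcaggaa
Mvd: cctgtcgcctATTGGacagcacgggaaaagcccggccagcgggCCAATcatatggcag
Srebf2: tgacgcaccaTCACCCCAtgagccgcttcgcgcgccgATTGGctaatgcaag

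Beyond the enzymes, other genes of the SREBP-2 arm were lower with DMHCA too. Of 11 genes tested 7 were lower and 0 higher, with a median of −0.86, and against vehicle 6 fell and 0 rose with DMHCA while 0 fell and 1 rose with T0901317. Insig1 (chr5:28071412-28078662 on mm10), which retains SREBPs in the endoplasmic reticulum, had 52.9, 51.5 and 61.04 CPM with DMHCA, against 174, 188 and 182 CPM with T0901317 and 164, 159.9 and 158 CPM with vehicle (−1.71 ± 0.08, adjusted p = 3.37e-21). Srebf2 itself had 157, 133 and 158 CPM with DMHCA, against 272, 288 and 254 CPM with T0901317 and 257, 288 and 273 CPM with vehicle (−0.86 ± 0.07, adjusted p = 7.25e-13). For both genes all DMHCA libraries lay below all T0901317 and vehicle libraries.

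Aacs, which feeds ketone bodies into lipid synthesis (−1.49 ± 0.10, adjusted p = 2.53e-15), and the sterol carrier Stard4 (−1.10 ± 0.13, adjusted p = 4.96e-08) were also lower. The protease Mbtps1 (−0.04 ± 0.08, −0.20 to 0.13) and the escort Scap (0.05 ± 0.09, −0.14 to 0.24), both parts of the SREBP cleavage machinery, did not pass.

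**Figure D4:**
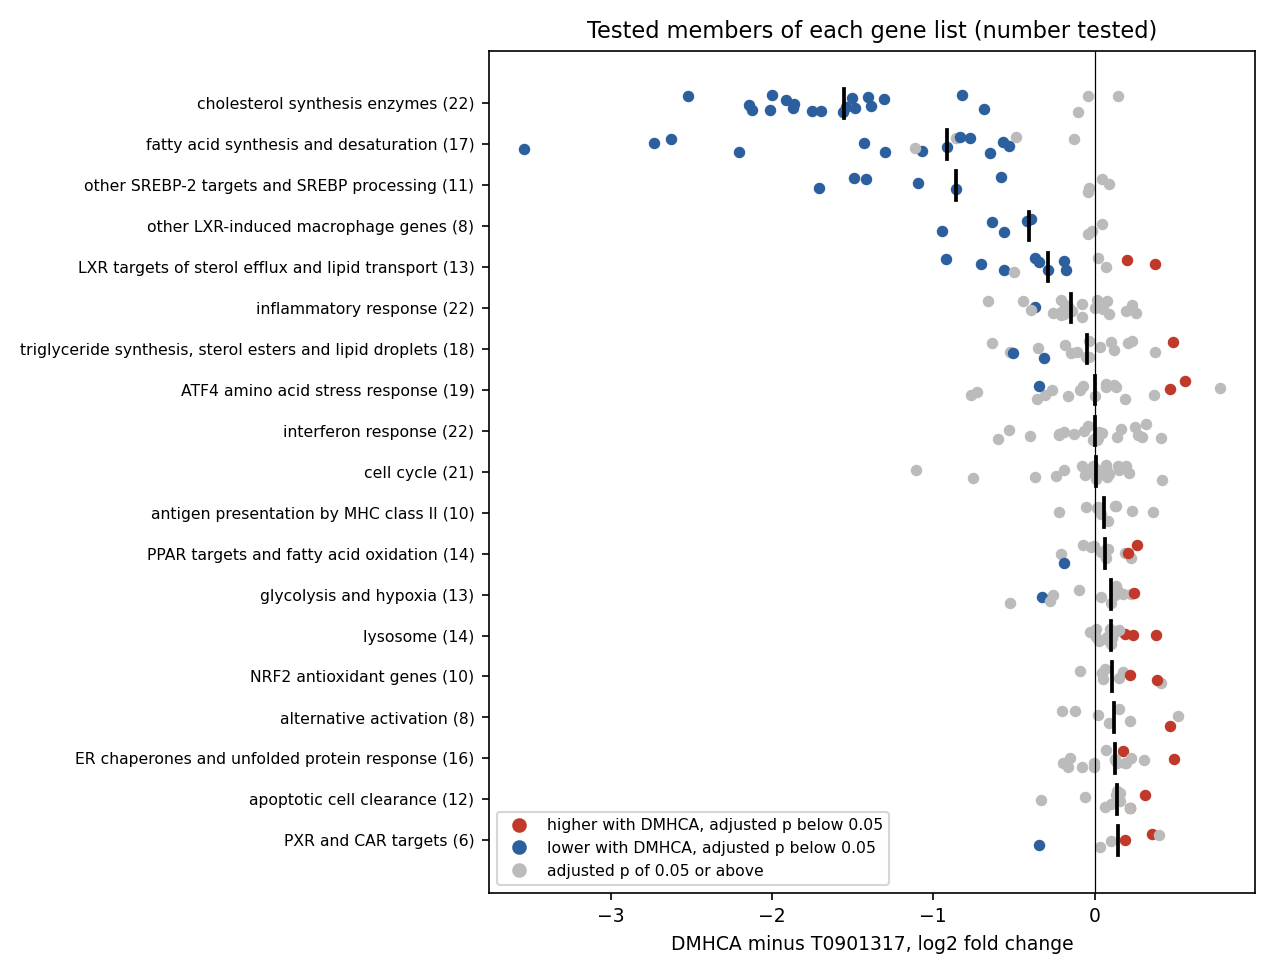
Each point is a tested member of a pathway list with at least 3 tested genes in macrophages, placed by its log2 fold change of DMHCA over T0901317 on the x axis and by list on the y axis, with the number tested in brackets. The black line is the list median. Left off is 1 gene with 1 count over the DMHCA libraries. Blue points are lower, red points higher and grey points not called. Marker lists of cell types are not drawn. Among the lists drawn, those with medians under −0.8 are cholesterol synthesis, fatty acid synthesis and other SREBP-2 targets, and most others are centred near 0.

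Genes of triglyceride synthesis, sterol esters and lipid droplets were little separated. Of 26 genes 18 were tested, with 2 lower, 1 higher and a median of −0.04. Lpin1, a phosphatidate phosphatase, had 91.9, 91.5 and 91.6 CPM with DMHCA, against 123, 127 and 138 CPM with T0901317 and 96.8, 93.9 and 97.98 CPM with vehicle (−0.51 ± 0.07, adjusted p = 3.64e-07). The seipin gene Bscl2 was lower at −0.31 ± 0.07 (adjusted p = 0.00556) and lost its call without T0901317 replicate 2 (0.0797), lowest 0.0013. The droplet coat gene Plin2 (−0.11 ± 0.06, −0.23 to 0.01) and Soat1, which esterifies cholesterol (−0.06 ± 0.06, −0.18 to 0.06), did not pass. The acyltransferase Dgat1 was called higher at 0.49 ± 0.15 (adjusted p = 0.0484) but lost its call with no low-count filter (0.0518), with DESeq2 (0.0759), with the replicate block (0.0532), with only the 6 libraries compared (0.0665), with counts thinned to one depth (0.0751) or without DMHCA replicate 1 (0.0629), 2 (0.235) or 3 (0.0931) or T0901317 replicate 1 (0.111), 2 (0.0743) or 3 (0.164), lowest 0.0491.

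Stress genes showed isolated differences. Of 19 tested genes of the ATF4 amino acid response 2 were higher and 1 lower, with a median of 0.00. The cystine transporter Slc7a11 had 26.5, 22.4 and 20.97 CPM with DMHCA, against 17.9, 12.03 and 16.1 CPM with T0901317 and 32.8, 36.9 and 33.3 CPM with vehicle (0.56 ± 0.13, adjusted p = 0.00526). The folate enzyme Mthfd2 (0.47 ± 0.13, adjusted p = 0.0211) lost its call without DMHCA replicate 2 (0.274) or T0901317 replicate 1 (0.103) or 3 (0.0713), lowest 0.00745. The factor Atf5 (−0.35 ± 0.09, adjusted p = 0.00766) lost its call without DMHCA replicate 3 (0.2) or T0901317 replicate 1 (0.0688), lowest 0.00188. Chaperones of the endoplasmic reticulum rose with both ligands against vehicle, 12 of 16 with each. The 2 ligands share the vehicle libraries. Between the ligands 2 of the 16 were higher with DMHCA, with a median of 0.12. Creld2 had 36.9, 41.7 and 43.01 CPM with DMHCA, against 30.7, 26.3 and 29.6 CPM with T0901317 and 25.6, 29.6 and 26.6 CPM with vehicle (0.49 ± 0.10, adjusted p = 0.000943). Hspa5, the chaperone BiP, differed by 0.17 ± 0.05 (adjusted p = 0.0261) and lost its call without DMHCA replicate 1 (0.0968), 2 (0.0752) or 3 (0.076) or T0901317 replicate 1 (0.0581) or 2 (0.192), lowest 0.0133. The chaperones Calr (0.14 ± 0.05) and Hsp90b1 (0.07 ± 0.06) did not pass. Among 10 NRF2 antioxidant genes 2 were higher, the peroxiredoxin Prdx1 (0.39 ± 0.05, adjusted p = 3.97e-07) and the ferritin gene Fth1 (0.22 ± 0.05, adjusted p = 0.00825). Fth1 lost its call without DMHCA replicate 3 (0.0826) or T0901317 replicate 1 (0.0653) or 3 (0.0669), lowest 3.62e-06. Prdx1 was below vehicle with both DMHCA (−0.16 ± 0.05, adjusted p = 0.022) and T0901317 (−0.55 ± 0.05, adjusted p = 1.015e-11).

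Inflammatory and immune lists held few calls. Over all tested genes 5.12% were called, and at that share lists of this size would hold few calls too. Of 22 tested inflammatory genes 0 were higher and 1 was lower, the cytokine Il1a, with 67.6, 59.2 and 57.97 CPM with DMHCA, against 74.9, 73.9 and 84.4 CPM with T0901317 and 21.7, 18.1 and 18.4 CPM with vehicle (−0.37 ± 0.09, adjusted p = 0.00469). That call was lost without DMHCA replicate 3 (0.0715) or T0901317 replicate 3 (0.104), lowest 0.000979. The pathogen receptor Tlr4 (0.07 ± 0.07) and the brake Tnfaip3 (−0.16 ± 0.06) did not pass. None of 22 interferon genes, 21 cell cycle genes, 10 MHC class II genes or 2 FXR targets passed. The interferon gene Bst2, which tethers virus particles, was at −0.00 ± 0.10 (−0.21 to 0.20), the replication clamp Pcna at −0.01 ± 0.08 (−0.17 to 0.15) and the MHC class II gene H2-Aa at 0.02 ± 0.12 (−0.22 to 0.26). Of the FXR and bile acid list Cyp27a1, which oxidises sterols, was at −0.16 ± 0.10 (−0.35 to 0.04) and the phospholipid pump Abcb4 at −0.28 ± 0.30 (−0.88 to 0.33). Medians were 0.00 for interferon, 0.01 for cell cycle and 0.06 for MHC class II genes.

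Small rises over T0901317 were seen among scavenger and lysosomal genes. The mannose receptor Mrc1, 1 of 8 tested genes of alternative activation to pass, had 257, 272 and 271 CPM with DMHCA, against 208, 181 and 192 CPM with T0901317 and 248, 243 and 244 CPM with vehicle (0.46 ± 0.06, adjusted p = 1.32e-07). The cathepsin Ctsl had 6474, 6588 and 7129 CPM with DMHCA, against 5249, 5143 and 5154 CPM with T0901317 and 4265, 4072 and 4258 CPM with vehicle (0.38 ± 0.05, adjusted p = 8.45e-08). It was 1 of 3 higher genes among 14 of the lysosome, beside Ctss (0.19 ± 0.04, adjusted p = 0.00291, and 0.578 in the 30-library fit) and the proton pump gene Atp6v0d2 (0.23 ± 0.05, adjusted p = 0.0029), which lost its call without DMHCA replicate 3 (0.0711) or T0901317 replicate 2 (0.0692), lowest 3.02e-05. Among 12 genes of apoptotic cell clearance 2 were higher, the scavenger receptor Msr1 (0.31 ± 0.06, adjusted p = 0.000637) and the bridging protein Mfge8 (0.22 ± 0.05, adjusted p = 0.00979), the second of which lost its call without DMHCA replicate 3 (0.0861) or T0901317 replicate 3 (0.0869), lowest 9.79e-05.

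Among 14 tested PPAR targets and genes of fatty acid oxidation 2 were higher, the fatty acid binding protein Fabp4 (0.26 ± 0.06, adjusted p = 0.0021) and the lipid receptor Cd36 (0.21 ± 0.04, adjusted p = 0.00192, and 0.091 in the 30-library fit). The carrier Ucp2 was lower (−0.19 ± 0.05, adjusted p = 0.0151) and lost its call without DMHCA replicate 3 (0.0984) or T0901317 replicate 2 (0.0928), lowest 0.00522. Of 6 tested PXR and CAR targets 2 were higher and 1 was lower. The organic anion pump Abcc3 had 273, 268 and 268 CPM with DMHCA, against 335, 366 and 328 CPM with T0901317 and 90.2, 103 and 100.2 CPM with vehicle (−0.34 ± 0.06, adjusted p = 6.31e-05). Ugt1a1 was higher by 0.36 ± 0.08 (adjusted p = 0.00291). It belongs to a cluster of genes with shared exons, which the counting could not tell apart. The haem synthesis gene Alas1 was near the threshold (0.19 ± 0.06, adjusted p = 0.0487) and lost its call with RLE size factors (0.0507), with upper-quartile factors (0.0557), with no low-count filter (0.0934), with only the 6 libraries compared (0.0932), with counts thinned to one depth (0.159) or without DMHCA replicate 1 (0.094), 2 (0.147) or 3 (0.139) or T0901317 replicate 2 (0.0782) or 3 (0.314), lowest 0.0245. Of 13 genes of glycolysis and hypoxia Vegfa, a growth factor of blood vessels, was lower (−0.32 ± 0.06, adjusted p = 0.00015) and Ldha, lactate dehydrogenase, was higher (0.24 ± 0.07, adjusted p = 0.019), the second of which lost its call without DMHCA replicate 3 (0.178) or T0901317 replicate 1 (0.0707) or 3 (0.0888), lowest 0.000821.

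Outside the lists the largest lower gene over 5 CPM was Atg9b, a relative of the autophagy gene Atg9a, with 1.83, 0.349 and 2.8 CPM with DMHCA, against 9.92, 11.8 and 7.12 CPM with T0901317 and 3.23, 2.94 and 3.12 CPM with vehicle (−2.38 ± 0.33, adjusted p = 1.23e-06). Smpd3, a neutral sphingomyelinase, had 17.3, 19.2 and 20.03 CPM with DMHCA, against 56.03, 64.9 and 67.9 CPM with T0901317 and 22.7, 21.1 and 22.4 CPM with vehicle (−1.74 ± 0.10, adjusted p = 8.34e-17). Acsl3, which activates fatty acids to their CoA esters, had 29.1, 22.4 and 26.3 CPM with DMHCA, against 85.04, 67.7 and 82.5 CPM with T0901317 and 19.01, 20.9 and 18.8 CPM with vehicle (−1.62 ± 0.10, adjusted p = 5.83e-16). In Smpd3 the DMHCA libraries lay below the vehicle libraries, in Acsl3 between vehicle and T0901317, and in Atg9b below vehicle, and T0901317 was the highest group in all 3. Utp14b (−1.65 ± 0.16, adjusted p = 4.07e-10), which shares its locus with Acsl3 on chromosome 1 and whose reads may therefore be shared with it, the aldolase Aldoc (−1.29 ± 0.21, adjusted p = 3.06e-05) and Gpr162 (−1.18 ± 0.14, adjusted p = 7.8e-08) followed. Igfbp6, an inhibitor of insulin-like growth factors with 1.97 ± 0.946 CPM with DMHCA and 5.83 ± 1.17 CPM with T0901317 (−1.36 ± 0.33, adjusted p = 0.00659, and 0.0983 in the 30-library fit), and Loxl1, which crosslinks elastin (−1.17 ± 0.24, adjusted p = 0.00129), were lower too. Pear1 (−1.16 ± 0.29, adjusted p = 0.0108) lost its call without DMHCA replicate 1 (0.0572), lowest 0.00828, and Dbn1 (−1.46 ± 0.41, adjusted p = 0.0237) lost it without DMHCA replicate 1 (0.12) or 3 (0.106) or T0901317 replicate 2 (0.231), lowest 0.00106.

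Among higher genes of at least 5 CPM outside the lists Galnt9, an enzyme that starts O-linked sugar chains, led with 9.95, 9.95 and 10.6 CPM with DMHCA, against 2.23, 2.76 and 3.91 CPM with T0901317 and 11.4, 10.6 and 12.9 CPM with vehicle (1.64 ± 0.22, adjusted p = 9.58e-07). Here DMHCA lay close to vehicle and T0901317 stood apart below. The chemokine receptor Ccr1 followed the same order, with 41.1, 35.6 and 27.5 CPM with DMHCA, against 16.9, 19.8 and 19.4 CPM with T0901317 and 36.7, 40.2 and 36.4 CPM with vehicle (0.85 ± 0.13, adjusted p = 1.24e-05). Slc7a2, an arginine transporter (0.78 ± 0.15, adjusted p = 0.000358), Rab19 (0.82 ± 0.19, adjusted p = 0.00324, and 0.204 in the 30-library fit), the receptor Prokr1 (0.75 ± 0.16, adjusted p = 0.00259) and the potassium channel Kcnn4 (0.66 ± 0.13, adjusted p = 0.000554) were higher as well. Sbk2 (0.82 ± 0.25, adjusted p = 0.0418) lost its call with no low-count filter (0.058), with DESeq2 (0.0727), with only the 6 libraries compared (0.0803), with counts thinned to one depth (0.215) or without DMHCA replicate 1 (0.114), 2 (0.0788) or 3 (0.107) or T0901317 replicate 1 (0.0625), 2 (0.116) or 3 (0.118), lowest 0.0423, and Vsig8 (0.67 ± 0.19, adjusted p = 0.0252) lost it with only the 6 libraries compared (0.0518), with counts thinned to one depth (0.133) or without DMHCA replicate 1 (0.118) or 3 (0.0826) or T0901317 replicate 1 (0.122) or 3 (0.107), lowest 0.014. Sh2d1b1 (1.05 ± 0.24, adjusted p = 0.00326) lost its call without T0901317 replicate 3 (0.105), lowest 0.000607, Arhgap4 (0.68 ± 0.16, adjusted p = 0.00555) lost it without DMHCA replicate 3 (0.0678) or T0901317 replicate 3 (0.198), lowest 0.000471, and Cmbl (0.78 ± 0.20, adjusted p = 0.0109) lost it without DMHCA replicate 3 (0.127) or T0901317 replicate 2 (0.0821), lowest 0.00139.

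Ranked by the difference in CPM, the lower genes outside the lists were Tnfaip2 (−0.55 ± 0.05, adjusted p = 2.43e-12), the MHC class I gene H2-K1 (−0.55 ± 0.05, adjusted p = 3.73e-12), the ubiquitin ligase subunit Fbxo32 (−0.59 ± 0.05, adjusted p = 1.91e-12), the syndecan Sdc3 (−0.29 ± 0.05, adjusted p = 6.15e-05) and Rn45s. H2-K1 is part of a family of near-identical genes, so its counts may hold reads of other members. Rn45s, the ribosomal RNA precursor, had 394, 421 and 406 CPM with DMHCA, against 740, 564 and 728 CPM with T0901317 and 528, 453 and 503 CPM with vehicle (−0.74 ± 0.11, adjusted p = 8.23e-06). Selection for polyadenylated RNA is meant to remove it, and its part in the results was not tested. Spans of Atg9b, Il1a, Atf5 and Tagln meet Nos3, Gm14023, Nup62 and Pcsk7 on the other strand, and that of Tm7sf2 meets Vps51, so their counts may hold reads of these. The higher genes ranked so were the intermediate filament gene Vim (0.27 ± 0.05, adjusted p = 9.18e-05), Sirpa, the receptor for CD47 (0.26 ± 0.04, adjusted p = 1.54e-05), the reductase Akr1a1 (0.28 ± 0.05, adjusted p = 0.000129), Ahnak and Gpnmb. Ahnak (0.24 ± 0.05, adjusted p = 0.00225) lost its call without DMHCA replicate 3 (0.0574), lowest 3.42e-05, and Gpnmb (0.18 ± 0.05, adjusted p = 0.0233) lost it without DMHCA replicate 3 (0.202) or T0901317 replicate 1 (0.0757) or 3 (0.0958), lowest 0.000232.

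Among markers of the cells in the dish, those of macrophages and of fibroblasts and smooth muscle held most calls. Macrophage markers summed to 16000 to 17098 CPM with DMHCA, against 14396 to 15097 CPM with T0901317 and 16184 to 16264 CPM with vehicle. Of 8 tested markers 4 were higher with DMHCA and 0 lower. Against vehicle 1 was higher and 3 were lower with DMHCA, and 1 higher and 4 lower with T0901317. In the 30-library fit, which did not test the F4/80 gene, 0 macrophage markers were called. The F4/80 gene, listed as Emr1, had 356, 337 and 365 CPM with DMHCA, against 306, 283 and 279.8 CPM with T0901317 and 435, 422 and 424 CPM with vehicle (0.29 ± 0.05, adjusted p = 0.00037). Of the 10 markers listed Timd4 and Cd163 were too scarce to test, and both were at 0 in some libraries. Csf1r, the growth factor receptor of macrophages (0.25 ± 0.05, adjusted p = 0.000846, and 0.0981 in the 30-library fit), and the integrin Itgam (0.28 ± 0.06, adjusted p = 0.000779, and 0.0517 in the 30-library fit) differed alike, and Fcgr1 (0.28 ± 0.07, adjusted p = 0.0103) lost its call without DMHCA replicate 2 (0.0741) or T0901317 replicate 3 (0.0949), lowest 0.0098. In these bulk samples fewer cells of a type and less RNA per cell cannot be told apart.

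Markers of fibroblasts and smooth muscle were lower with DMHCA for all 7 that could be tested of 9, with a median of −0.92. Their summed level was 159, 246 and 189.9 CPM with DMHCA, against 312, 388 and 299 CPM with T0901317 and 289, 367 and 296 CPM with vehicle. The collagen gene Col1a1 had 26.98, 44.4 and 27.8 CPM with DMHCA, against 63.96, 77.2 and 56.7 CPM with T0901317 and 55.5, 63.98 and 49.7 CPM with vehicle (−0.96 ± 0.14, adjusted p = 4.8e-06). The contractile genes Acta2 (−1.17 ± 0.22, adjusted p = 0.00037) and Tagln (−1.15 ± 0.24, adjusted p = 0.00129) and the collagen genes Col3a1 (−0.92 ± 0.14, adjusted p = 7.23e-06) and Col1a2 (−0.57 ± 0.12, adjusted p = 0.00134) shared this direction. Pdgfra (−0.58 ± 0.16, adjusted p = 0.0189) lost its call with DESeq2 (0.138) or without DMHCA replicate 1 (0.16) or 3 (0.0672) or T0901317 replicate 1 (0.0536) or 2 (0.0967), lowest 7.91e-06, and Dcn (−0.48 ± 0.13, adjusted p = 0.0226) lost it without DMHCA replicate 1 (0.116) or T0901317 replicate 1 (0.129) or 2 (0.052), lowest 0.00198. The part of these cells in the lower level of matrix genes such as Loxl1 and Igfbp6, or of any other gene above, was not tested.

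Mesothelial markers summed to 17.6 to 22.2 CPM with DMHCA, against 24.6 to 28.3 CPM with T0901317, and 0 of 6 passed. Endothelial markers summed to 115 to 139 CPM with DMHCA, against 109.6 to 142 CPM with T0901317, and 0 of 2 tested passed. The neutrophil gene S100a8 was higher with DMHCA, at 8.12, 10.8 and 11.8 CPM, against 6.94, 4.01 and 4.6 CPM with T0901317 and 9.6, 7.87 and 7.51 CPM with vehicle (1.06 ± 0.22, adjusted p = 0.00125). Its partner S100a9 and the granule genes Mpo and Camp were at 0 counts with both ligands and Ngp and Cxcr2 were too scarce to test, while Ly6g was not analysed here. Markers of B cells, T and NK cells, eosinophils, mast cells and dendritic cells together gave 1 tested gene each at most and 0 calls. Hepatocyte markers gave 0 counts with DMHCA, against 1 with T0901317, and erythroid markers 0 with both.

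The endothelial adhesion gene Cdh5 was at 3 counts with DMHCA and 3 with T0901317, and Tek was at 0 with both.

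GW3965, a further synthetic LXR agonist that is not a sterol, was given at the same dose and time and shares the DMHCA libraries with the comparison above. Against GW3965 391 genes differed with DMHCA (3.39%), 156 higher (1.35%) and 235 lower (2.04%). The cholesterol list had 19 of 22 lower and 0 higher, the fatty acid list 13 of 17 lower and 0 higher, the other SREBP-2 targets 7 of 11 lower and the efflux list 7 of 13 lower. Scd1 differed by −3.31 ± 0.07 (adjusted p = 5.09e-32), Fasn by −2.78 ± 0.07 (adjusted p = 6.17e-30), Cyp51 by −2.18 ± 0.08 (adjusted p = 4.49e-23) and Abca1 by −0.54 ± 0.05 (adjusted p = 3.96e-12). Between the agonists themselves GW3965 differed from T0901317 in 2 genes (0.0173%), Rn45s on the higher and Steap3 on the lower side (0.00866% each).

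The same ligands were given at the same dose to hepatocytes. Their medium differed, and so did the date in their titles, and neither can be told apart from the cell type. In hepatocytes 386 of 13700 genes differed with DMHCA (2.82%), 224 higher (1.64%) and 162 lower (1.18%). The contrast of DMHCA with T0901317 differed between macrophages and hepatocytes for 278 genes (2.03%), 96 with a positive (0.701%) and 182 with a negative difference (1.33%).

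For Abca1 and Abcg1 the gap between the ligands was wider in hepatocytes. Abca1 had 142 and 137 CPM in DMHCA hepatocytes, against 719.9 and 824 CPM in T0901317 hepatocytes and 161 and 133 CPM in vehicle hepatocytes. DMHCA and vehicle overlapped there, whereas in macrophages DMHCA stood far above vehicle. The log2 fold change was −2.47 ± 0.08 in hepatocytes, and the macrophage contrast exceeded it by 1.91 ± 0.10 (adjusted p = 1.53e-18). Abcg1, which is scarce in hepatocytes, had 0.375 and 0.718 CPM in DMHCA hepatocytes, against 6.26 and 5.21 CPM in T0901317 hepatocytes, and the macrophage contrast exceeded it by 2.99 ± 0.27 (adjusted p = 4.76e-11). Mylip went in the same direction without passing the test, at 1.30 ± 0.38 (0.54 to 2.07, adjusted p = 0.0614). This value rested on single hepatocyte libraries. It was 1.83 without hepatocyte T0901317 replicate 1, where it passed (adjusted p = 0.00456), and 0.65 without hepatocyte T0901317 replicate 2 (0.602). With no low-count filter it was 1.31 and passed (0.0328).

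For Srebf1 the contrast was close in both cell types, with 93.05 and 75.5 CPM in DMHCA hepatocytes, against 181 and 182 CPM in T0901317 hepatocytes, and a difference between cell types of 0.04 ± 0.12 (−0.19 to 0.28, adjusted p = 0.968). Scd1 and Fasn went the other way from Abca1. Scd1 had 917 and 992 CPM in DMHCA hepatocytes, against 4610 and 5255 CPM in T0901317 hepatocytes and 941 and 916 CPM in vehicle hepatocytes, a difference between cell types of −1.16 ± 0.11 (adjusted p = 3.25e-10). Fasn had 397 and 363 CPM in DMHCA hepatocytes, against 655 and 630.1 CPM in T0901317 hepatocytes and 322 and 289 CPM in vehicle hepatocytes, a difference between cell types of −1.86 ± 0.11 (adjusted p = 8.11e-17).

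The cholesterol list split by cell type. Of 22 enzymes 18 had a negative difference between macrophages and hepatocytes and 0 a positive one. In hepatocytes alone 3 enzymes were higher and 1 lower with DMHCA, with a median of 0.11, against −1.55 in macrophages and 0.02 over all genes tested in hepatocytes. Of 11 other SREBP-2 targets 6 had a negative difference and 0 a positive one. Of 22 genes of the fatty acid list 9 had a negative difference, and in hepatocytes alone 9 were lower with DMHCA and 0 higher. Of 17 efflux genes 3 had a positive and 2 a negative difference.

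**Figure D5:**
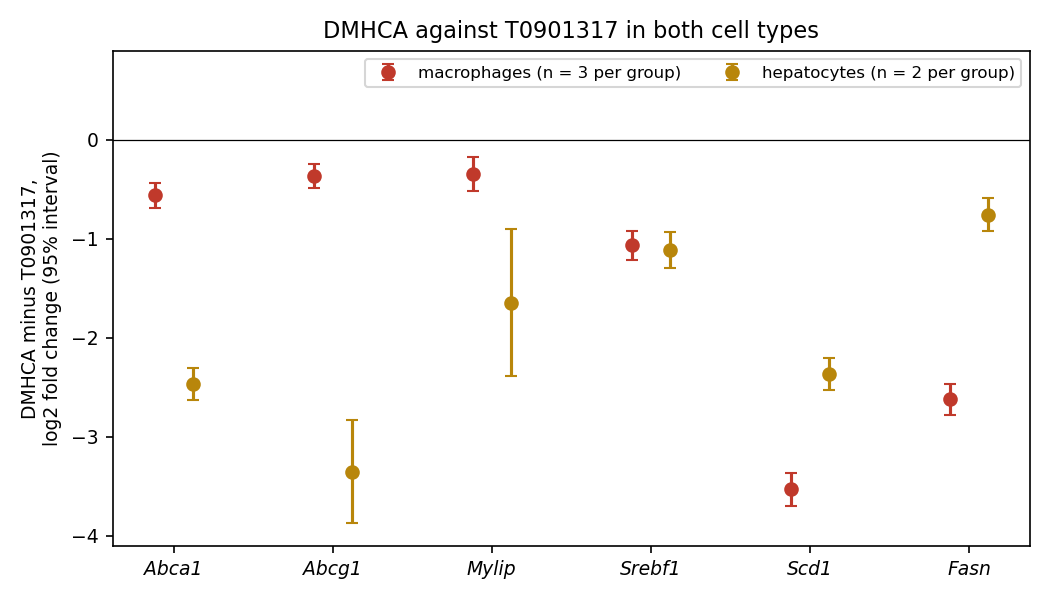
Log2 fold change of DMHCA over T0901317 with its 95% interval for 6 genes, in macrophages (left of each pair, 3 libraries a group) and hepatocytes (right, 2 libraries a group), from 1 fit of all 30 libraries. Abca1 and Abcg1 lie nearer 0 in macrophages, Scd1 and Fasn lie nearer 0 in hepatocytes, and Srebf1 lies at about the same value in both.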

How the data were processed

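Polyadenylated RNA was sequenced from dUTP-marked libraries, per the labels' protocols. STAR and HOMER on mm10 made the files, per the submitters' processing notes, with versions not given in the sources used here. The deposited tables hold raw counts over exons of 1 transcript per gene, unadjusted, per the file headers, with no strand option stated, so overlapping genes may share counts. RPKM tables were not used.

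The test was edgeR's quasi-likelihood F test (version 4.0.16, R 4.3.3) after filterByExpr, TMM factors, 1 mean per group over 18 macrophage libraries (12 residual degrees of freedom, coefficient of variation 0.0554) and Benjamini-Hochberg adjustment, on a script tested on simulated data. SE is the fold change over the root of F. All 30 libraries entered the cell type fit, joined by 23703 shared symbols. Members and lists were chosen with earlier results of these data known. Named genes were Abca1, Abcg1, Mylip, Srebf1, Scd1 and Fasn, per list up to 6 called and 2 uncalled, outside lists 12 higher and 12 lower of at least 5 CPM by fold and 5 and 5 by CPM difference, and markers. Some uncalled genes of this rule are not described, results of some genes are not reported here, and a few listed genes were added after their values were seen. Alternatives covered scaling, filters, DESeq2 1.42.0, a replicate block, depth, a 1.5-fold threshold and each left-out library, and, chosen after seeing the data, the macrophage contrast of the 30-library fit.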

Additional observations from a re-analysis of the deposited data

Results flagged for a closer look

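The contrast of DMHCA with T0901317 differed between macrophages and hepatocytes, by a test of the difference itself, for 4 of the 6 genes followed in both. On the log2 scale it was 1.91 higher in macrophages than in hepatocytes for Abca1 and 2.99 higher for Abcg1. It was −1.86 for Fasn and −1.16 for Scd1, which means a wider gap below T0901317 in macrophages. Over all genes 96 had a positive and 182 a negative difference. These 4 differences passed under all 13 alternatives run. Medium and date differ with the cell type, and their part in the differences cannot be told apart.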

How the results depend on the processing

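Leaving out 1 of the 6 libraries in turn gave 141 to 221 higher and 195 to 285 lower genes, against 260 and 331, with the lowest of both without DMHCA replicate 3. The macrophage contrast of the fit over all 30 libraries, chosen after seeing the data, gave 106 higher and 175 lower genes; 279 of these 281 were among the 591. A test against a 1.5-fold threshold left 1 higher and 45 lower genes. With other scalings, no low-count filter, DESeq2, only the 6 libraries or counts thinned to 3.86 M a library, 225 to 272 were higher and 279 to 351 lower. Without a library of the comparison, the difference between cell types was positive for 57 to 128 and negative for 120 to 224 genes, lowest without macrophage DMHCA replicate 3. The replicate block gave 274 higher and 355 lower genes in macrophages, and 109 positive and 192 negative differences between cell types. Same-numbered libraries correlated at only 0.028, 0.047 and 0.033, against −0.035 to 0.003 for the other pairs. Each DMHCA library correlated best with its own number. The labels do not say what a replicate is, so these low correlations cannot decide whether the numbers pair the libraries. Of 152 named genes 98 were called, 72 under all 13 alternatives fixed for them, and 26 lost the call under at least 1; the cause was not tested. In the 30-library fit 69 of the 98 were called, 28 were not, and Emr1 was not tested. Those not called were Abca7, Alas1, Arhgap4, Atf5, Atp6v0d2, Cd36, Csf1r, Ctss, Dbn1, Dcn, Dgat1, Fcgr1, Fth1 and Gpnmb. Likewise not called were Hspa5, Igfbp6, Il1a, Itgam, Ldha, Mfge8, Mthfd2, Pdgfra, Pear1, Rab19, Sbk2, Sh2d1b1, Ucp2 and Vsig8. Uncalled C1qb, Lyz2 and Pkm gained a call under at least 1 of the 13 alternatives. No called gene among the named ones changed sign under the 13 alternatives. Signs of uncalled genes, and of most called genes beyond the named ones, were not followed. Depth of 3.86 to 11.45 M counts limits genes of a few CPM.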

Other observations

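Some genes with large differences fell outside the rule for naming because their levels were low, and were chosen after their values were seen. A2m, a protease inhibitor, averaged 0.966 ± 0.543 CPM in DMHCA macrophages and 4.31 ± 2.33 CPM in T0901317 macrophages (SD, n = 3 each), a log2 fold change of −2.02 ± 0.44 (edgeR adjusted p = 0.00239). Igfbp3, a binding protein of insulin-like growth factors, averaged 0.437 ± 0.545 CPM with DMHCA and 2.25 ± 1.15 CPM with T0901317 (−2.35 ± 0.66, adjusted p = 0.0237) and lost its call without DMHCA replicate 1 (0.0808) or 3 (0.266) or T0901317 replicate 2 (0.108) or 3 (0.0607), lowest 0.0043. On the higher side Epm2a, the laforin phosphatase of glycogen, averaged 3.27 ± 0.892 CPM with DMHCA and 1.32 ± 0.147 CPM with T0901317 (1.40 ± 0.38, adjusted p = 0.0181). It lost its call with counts thinned to one depth (0.0936) or without DMHCA replicate 3 (0.187) or T0901317 replicate 3 (0.124), lowest 0.0117, and in the 30-library fit (0.177). Setmar averaged 4.77 ± 1.1 CPM with DMHCA and 2.17 ± 1.05 CPM with T0901317 (1.11 ± 0.31, adjusted p = 0.0232), lost its call with counts thinned to one depth (0.169) or without DMHCA replicate 3 (0.257) or T0901317 replicate 1 (0.118) or 3 (0.0617), lowest 0.0142, and lost it in the 30-library fit (0.132). Zfp558 had 2.1, 2.79 and 1.87 CPM with DMHCA, against 0.248, 0.251 and 1.04 CPM with T0901317 (1.67 ± 0.49, adjusted p = 0.0378). It lost its call with DESeq2 (0.0514) or without DMHCA replicate 1 (0.0661), 2 (0.159) or 3 (0.0673) or T0901317 replicate 1 (0.123) or 2 (0.119), lowest 0.0141, and in the 30-library fit (0.108).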
